A study of Homo sapiens with 4 samples.

Results

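The genes described here encode the subunits of the hypoxia-inducible factors (HIF) and the proteins that tie those subunits to oxygen. The 10 members were taken by gene identity from 62655 gene IDs: the alpha subunits HIF1A, EPAS1 and HIF3A, the beta subunits ARNT and ARNT2, the prolyl hydroxylases EGLN1, EGLN2 and EGLN3, the ubiquitin ligase component VHL, and the asparaginyl hydroxylase HIF1AN. They were chosen by what the genes encode, and no expression value enters the rule, but the group was proposed with earlier results of these data in view, among them the lower EGLN3 level in the comparison of mimic with control. Their values in that comparison are therefore a description, and a place in the fit across all genes is not independent support for them.

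A HIF dimer pairs an alpha with a beta subunit and switches on genes of glucose uptake, glycolysis, red cell production and vessel growth. When oxygen is present, EGLN enzymes hydroxylate prolines of the alpha subunit, VHL binds the hydroxylated protein and it is degraded, while HIF1AN blocks coactivator binding. Control is thus largely at the level of the protein, which mRNA does not measure. EGLN1 and EGLN3 are themselves known HIF target genes, and EPAS1, also called HIF-2alpha, is the alpha subunit best known for driving erythropoietin and lipid storage in liver.

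All libraries came from Hep G2, a single human liver tumour line used as a hepatocyte model. Every culture was kept in medium rich in oleic acid, which makes the cells steatotic, before transfection with HiPerFect. The mimic group (2 libraries) received an oligonucleotide mimic of LysTTT-5'tRF, a fragment from the 5' end of a lysine tRNA, and the control group (2 libraries) a negative control oligonucleotide; RNA was taken a day after transfection. The labels give no oxygen level and do not say whether libraries of a group came from separate cultures, so the spread behind each p-value may be technical only. The mimic columns carry a number in their names and were assigned to the mimic because the other columns carry the control's abbreviation. Reads assigned to genes ranged from 15430539 to 18961222 per library. All 8 hepatocyte markers on the list were tested and summed to 48697 and 48304 CPM (counts per 1000000 reads of the scaled library) in mimic libraries 1 and 2 and to 47435 and 45590 CPM in control libraries 1 and 2. Of the 5 immune markers 3 had no read in any library, and the rest summed to at most 0.457 CPM. ALB was called higher (log2 fold change 0.23) by edgeR, but not in DESeq2 (adjusted p = 0.342), with TTR at 0.26 and AFP at 0.13 not called. The other hepatocyte markers on the list had log2 fold changes from -0.00074 to 0.11 and were not called. Of markers of other cell types, PDGFRB of stellate cells and pericytes was the most abundant; it averaged 18.1 ± 1.24 CPM in mimic libraries and 15.9 ± 2.16 CPM in control libraries (SD, n = 2 each). Endothelial PECAM1 averaged 8.05 and 8.16 CPM in mimic and control libraries, CDH5 1.43 and 1.07 CPM, VWF 1.04 and 0.425 CPM, and the collagen gene COL1A1 3.36 and 3.50 CPM; none of these 5 genes passed the test. The remaining 10 listed markers of such cells did not pass the filter on low counts, and 8 of them had no read in any library.

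Short stretches of member promoters that hold the HIF core are shown, since HIF acts on several of its own regulators. The core was searched as ACGTG and GCGTG on both strands in the 250 bases before each RefSeq start (GRCh38.p14). Sequences read along the gene's strand, with the core in capitals; the EGLN2 core is part of a palindrome, so that its strands overlap and count as a core each.
HIF1A, chr14:61695299-61695323, plus strand: gctgagagcgGCGTGggctggggtg
EPAS1, chr2:46297280-46297304, plus strand: gcctgccggcGCGTGcccgcccaca
EGLN1, chr1:231422288-231422310, minus strand: gccgtggtgtACGTGcagagcgc
EGLN2, chr19:40799132-40799156, plus strand: ggggcgcggtCACGTgcccaccggg

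The first base of these cores lay 204 bases before the HIF1A start, 117 before the EPAS1 start, 13 before the EGLN1 start and, for EGLN2, 49 before it. HIF3A held 3 GCGTG cores before its first listed start. No core was found in the windows of ARNT, EGLN3 and HIF1AN, or before the second HIF1A and EGLN2 starts and the other HIF3A starts; ARNT2 and VHL had no window. Among 35116 windows of this length from RefSeq, at least 1 core was present in 43.2%, ACGTG in 18.5% and GCGTG in 32.2%. Whether members differ from these shares was not tested. The EPAS1, EGLN1 and EGLN2 windows with a core also overlapped annotated exons of the same gene. A core is a match of letters and does not show binding.

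EPAS1 and HIF1A were the most abundant members per kilobase of exon, and HIF3A the least. On the scale of CPM per kilobase of exon (the union of annotated exons), EPAS1 ranged from 40.1 to 42.4 over the 4 libraries and HIF1A from 36.0 to 44.3, so the order of these neighbours was not fixed. VHL followed at 15.6 to 16.8 CPM per kilobase, apart from ARNT at 7.43 to 8.10. EGLN1 (6.36 to 7.57) overlapped ARNT in range, and HIF1AN at 6.35 to 6.70 CPM per kilobase overlapped EGLN1. EGLN3 stood at 3.82 to 5.85, while ARNT2 at 0.538 to 0.715 and EGLN2 at 0.491 to 0.685 overlapped. The EGLN2 value uses its whole exon union, so its place beside ARNT2 depends on that length. A readthrough gene shares 30.6% of this union, but 71.3% to 95.7% of each principal transcript of EGLN2. The part of this overlap in the level and place of EGLN2 was not tested. HIF3A was at 0.0254 to 0.0568 CPM per kilobase.

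These levels depend on the length used, in particular for EGLN3. Its union of exons covers 7359 bases, but its principal transcript only 2709. By the longest principal transcript, a length chosen after the values were seen, EGLN3 averaged 13.8 CPM per kilobase and ranked 4th instead of 7th, next to ARNT at 10.4; their ranges of 10.4 to 15.9 for EGLN3 and 9.91 to 10.8 for ARNT overlapped. EPAS1 (58.6), HIF1A (51.9) and VHL (18.4) kept their places as the 3 highest, and HIF3A (0.0647) its place as the lowest.

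**Figure D1:**
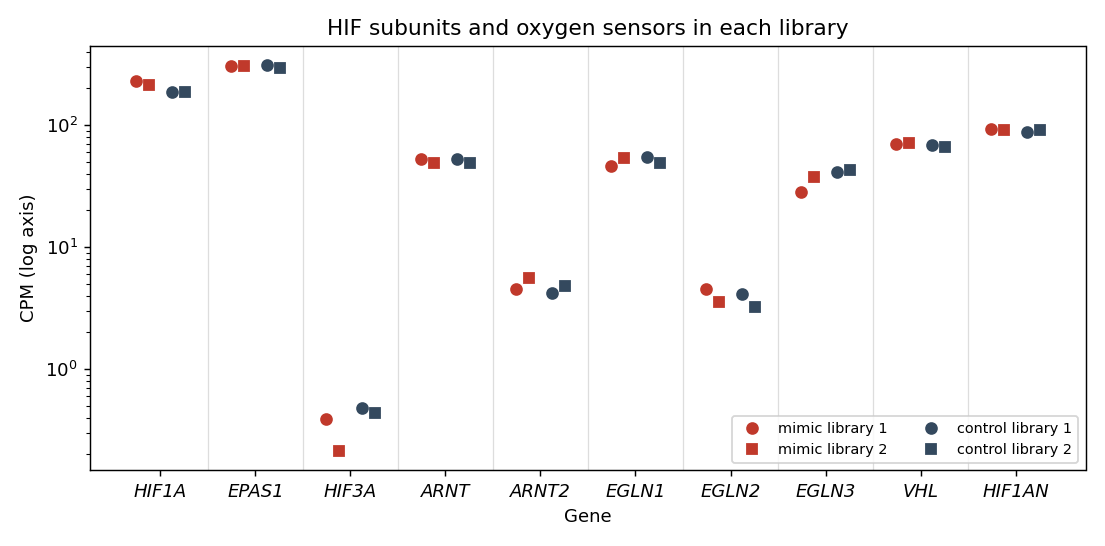
CPM of each of the 10 genes in each library on a log axis (points: single libraries, circle for library 1 and square for library 2; mimic in red left of control in dark blue). HIF1A is higher in both mimic libraries (213 and 228 CPM) than in both controls (186 and 187 CPM), EGLN3 is lowest in mimic library 1 (28.1 CPM), and HIF3A stays under 0.5 CPM.

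HIF1A was the only member called in the fit across all genes, and it was higher with the mimic. HIF1A (ENSG00000100644; chromosome 14, 61695513 to 61748259, GRCh38, plus strand) encodes the widely expressed, oxygen-labile alpha subunit that drives the glycolytic response. It had 228 and 213 CPM in mimic libraries 1 and 2, against 187 and 186 CPM in control libraries 1 and 2. Both mimic libraries lay above both controls, and the controls were closer to each other than the mimic libraries were. In bulk libraries a change in every cell and a change in the share of cells with the transcript cannot be told apart. The mean was 221 ± 10.6 CPM in mimic libraries and 186 ± 0.816 CPM in control libraries (SD, n = 2 each), a 1.18-fold difference. In edgeR's quasi-likelihood fit across all genes, with Benjamini-Hochberg (BH) adjustment, the log2 fold change was 0.24 (SE 0.05, 95% interval 0.14 to 0.35; adjusted p = 0.0369 over 14464 genes), and its p ranked 42nd. In that fit 0.346% of all genes were called and 0.277% were called higher, against 1 of the 9 members that passed the filter on low counts. At an unadjusted p under 0.05 there was 1 member higher (HIF1A) and 1 lower (EGLN3), against 9.43% of all genes, 5.06% higher and 4.37% lower. The HIF1A call was lost without mimic library 1 (log2 fold change 0.19, adjusted p = 0.496, edgeR, BH). It was lost by a narrow margin without control library 2 (log2 fold change 0.24, adjusted p = 0.0506, edgeR, BH), with upper-quartile scaling (adjusted p = 0.0505) and with library totals (adjusted p = 0.0549). Where all genes with a read were kept, no gene was called, and HIF1A had an adjusted p of 0.754 (edgeR, BH).

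EPAS1 was not called. It encodes the other abundant alpha subunit and had 305 and 303 CPM in mimic libraries 1 and 2, against 310 and 293 CPM in control libraries 1 and 2. The groups overlapped, with both mimic libraries between the controls. The log2 fold change was 0.01 (95% interval -0.09 to 0.11; adjusted p = 0.968, edgeR, BH), so that a difference of the size of HIF1A's point estimate lay outside the interval of EPAS1. Within the reads of this pair, which need no scaling between libraries, HIF1A made up 42.8% and 41.3% in mimic libraries 1 and 2, against 37.6% and 38.8% in control libraries 1 and 2. The lowest bound among the exact 95% binomial intervals of the mimic libraries was 40.4% and the highest bound among those of the controls 39.9%; such intervals cover counting error only. An exact two-sided permutation test of this share over the 4 libraries gave p = 0.333, the smallest that 2 against 2 allows. That HIF1A and EPAS1 responded differently is therefore not shown by a test.

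HIF3A, an alpha subunit whose shorter forms can restrain the others, was close to the limit of detection. It had 6 and 4 reads in mimic libraries 1 and 2 and 8 and 7 reads in control libraries 1 and 2, corresponding to 0.392 and 0.213 CPM in the mimic libraries and 0.476 and 0.435 CPM in the control libraries. It did not pass the filter on low counts and was not tested. The 3 alpha subunits together reached 534 and 516 CPM with the mimic, against 497 and 479 CPM in the control.

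The beta subunits did not pass the test. ARNT, the common partner of the HIF alpha subunits and of the aryl hydrocarbon receptor, had 52.4 and 49.0 CPM in mimic libraries 1 and 2, against 52.8 and 48.4 CPM in control libraries 1 and 2. These values interleaved, with a log2 fold change of -0.0010 and a 95% interval from -0.16 to 0.16. ARNT2, a partner best known from neurons and kidney, had 4.57 and 5.54 CPM in mimic libraries 1 and 2 and 4.16 and 4.78 CPM in control libraries 1 and 2, with overlap and a wide interval (log2 fold change 0.19, -0.29 to 0.67). ARNT supplied between 89.9% and 92.7% of the reads of this pair in every library.

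**Figure D2:**
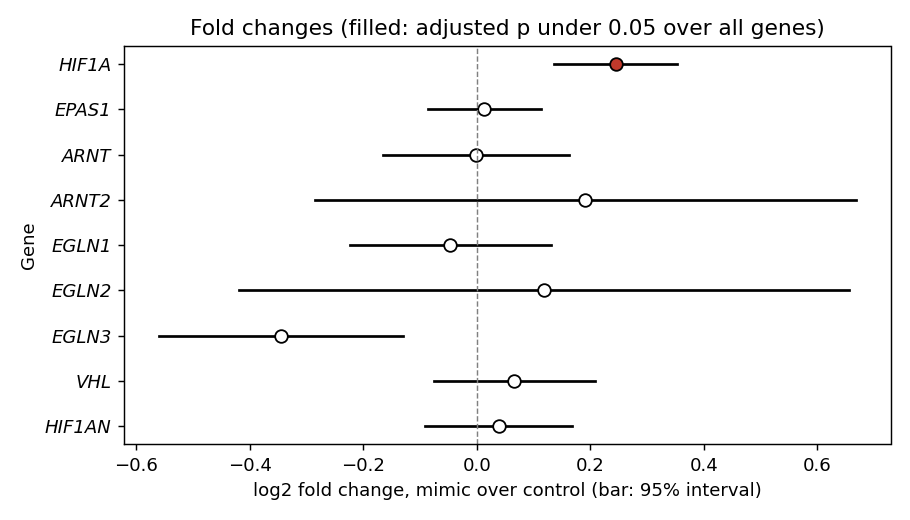
Log2 fold change of mimic over control for the 9 tested genes (points; lines: 95% intervals of edgeR's quasi-likelihood fit; filled red: adjusted p under 0.05 over all genes). HIF1A at 0.24 is the only filled point, EGLN3 lies at -0.34 with an interval below 0, and the other 7 intervals include 0.

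Among the EGLN hydroxylases, EGLN3 had the lowest fold change of the 9 tested members and was not called. EGLN3 (ENSG00000129521; chromosome 14, 33924231 to 34462774, GRCh38, minus strand) encodes PHD3, a prolyl hydroxylase that hypoxia induces. It had 28.1 and 37.5 CPM in mimic libraries 1 and 2, against 41.1 and 43.0 CPM in control libraries 1 and 2. The groups did not overlap, yet mimic library 2 lay nearer to the controls than to mimic library 1. The log2 difference between the mimic libraries (library 1 minus library 2) was -0.42, larger in size than the log2 fold change between groups of -0.34 (SE 0.10, 95% interval -0.56 to -0.13; adjusted p = 0.220, edgeR, BH). Without mimic library 1 the log2 fold change was -0.17 (adjusted p = 0.903, edgeR, BH). It was -0.58 without mimic library 2 (adjusted p = 0.000927, edgeR, BH) and -0.38 without control library 1 (adjusted p = 0.0203, edgeR, BH), where the gene was called.

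EGLN1, or PHD2, the main hydroxylase of the alpha subunits in most cells, had 46.2 and 54.1 CPM in mimic libraries 1 and 2, against 55.0 and 49.1 CPM in control libraries 1 and 2. The groups overlapped, and mimic library 1 was the lowest here too (log2 fold change -0.05, 95% interval -0.22 to 0.13). EGLN3 made up 37.8% and 40.9% of the reads of EGLN1 and EGLN3 together in mimic libraries 1 and 2, against 42.8% and 46.7% in control libraries 1 and 2. The exact 95% binomial intervals of mimic library 2 (38.6% to 43.3%) and control library 1 (40.4% to 45.2%) overlapped, and the exact two-sided permutation test gave p = 0.333, the smallest possible.

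EGLN2, or PHD1, had few reads. It had 69 and 67 reads in mimic libraries 1 and 2 and 69 and 52 reads in control libraries 1 and 2, or 4.51 and 3.57 CPM in the mimic libraries and 4.10 and 3.23 CPM in the control libraries. The annotated readthrough gene RAB4B-EGLN2 covers 95.7%, 93.6% and 71.3% of its 3 principal transcripts on the same strand and had 0 reads in all 4 libraries. How the authors' counting treated reads on both genes is not given in the sources used here, and the part of the overlap in the EGLN2 values was not tested. Its groups overlapped (log2 fold change 0.12, 95% interval -0.42 to 0.66).

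In CPM summed without regard to gene length, the alpha subunits were 6.77 and 5.42 times the 3 EGLN genes, EGLN2 as counted, in mimic libraries 1 and 2, and 4.96 and 5.02 times in control libraries 1 and 2. Mimic library 1 stood apart, and mimic library 2 lay nearer to the controls. The exact two-sided permutation test gave p = 0.333, the smallest possible with 2 libraries per group.

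**Figure D3:**
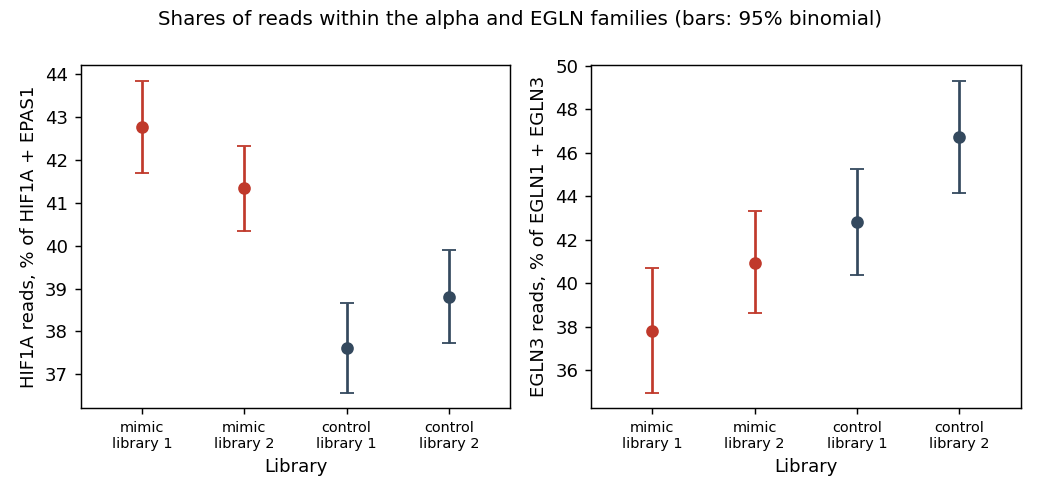
Share of HIF1A among HIF1A and EPAS1 reads (left, percent) and of EGLN3 among EGLN1 and EGLN3 reads (right, percent) in each library, mimic in red and control in dark blue, with exact 95% binomial intervals. The HIF1A share is 42.8% and 41.3% with the mimic and 37.6% and 38.8% in the control, with intervals that do not overlap between groups; the EGLN3 intervals of mimic library 2 and control library 1 overlap. The axes do not start at 0.

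VHL and HIF1AN, which act on the alpha subunits after or beside the prolyl hydroxylases, varied little. VHL, the substrate receptor of the ubiquitin ligase, had 69.7 and 70.7 CPM in mimic libraries 1 and 2, against 68.3 and 65.8 CPM in control libraries 1 and 2. Its log2 fold change was 0.07 (95% interval -0.07 to 0.21). HIF1AN, also called FIH, had 93.4 and 92.0 CPM in mimic libraries 1 and 2, against 88.5 and 91.9 CPM in control libraries 1 and 2 (log2 fold change 0.04, 95% interval -0.09 to 0.17). In both genes the groups did not overlap, with the mimic higher, but neither passed the test (adjusted p = 0.839 and 0.911, edgeR, BH). Groups without overlap were found in 4 of the 9 tested members, 3 higher (HIF1A, VHL, HIF1AN) and 1 lower (EGLN3), against 39.1% of all tested genes, 19.8% higher and 19.3% lower. The members' share is near that of genes at large. The median log2 fold change of the 9 was 0.04, against 0.00 over all genes.

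**Figure D4:**
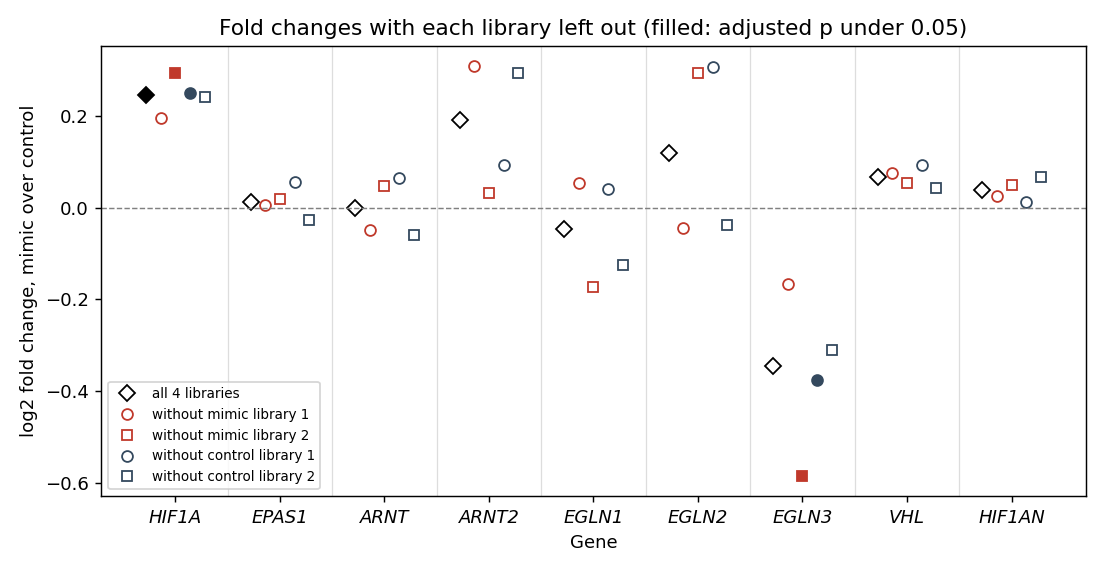
Log2 fold change of mimic over control for the 9 tested genes with all 4 libraries (diamonds) and with each library left out (red: a mimic library, dark blue: a control library; circle for library 1, square for library 2; filled: adjusted p under 0.05). HIF1A stays between 0.19 and 0.29, whereas EGLN3 lies at -0.58 without mimic library 2 and at -0.17 without mimic library 1, and EGLN1, EGLN2, EPAS1 and ARNT change sign.

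Overlapping genes other than the readthrough touched little of the members' exons. HIF1A-AS3 lies opposite HIF1A without shared exon sequence and had 27 and 18 reads in mimic libraries 1 and 2, against 14 and 5 reads in control libraries 1 and 2. It was higher with the mimic without passing the test (log2 fold change 1.18, 95% interval 0.05 to 2.32; adjusted p = 0.512, edgeR, BH). HIF1A-AS1, which lies opposite 2.27% of the HIF1A exon bases, had no read in any library. EGLN3-AS1, opposite an EGLN3 intron, had 4 and 27 reads with the mimic and 13 and 7 reads in the control. NDUFB8, a respiratory chain subunit gene, lies opposite 2.33% of the HIF1AN exon bases at 13.7 and 10.2 CPM in mimic libraries 1 and 2, against 11.8 and 14.3 CPM in control libraries 1 and 2. Whether counting used strand is not stated in the labels or headers.

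Most HIF targets of glucose metabolism had log2 fold changes below 0, 1 of them called. Of 24 tested targets in glucose metabolism 0 were called higher, 1 was called lower and 23 did not pass, against 0.0691% of all genes called lower. Below 0 lay 20 of the 24, with a median log2 fold change of -0.11, against 49.6% of all genes and a median of 0.00. The called gene was SLC2A1, the glucose transporter GLUT1, with 1183 and 1244 CPM in mimic libraries 1 and 2, against 1332 and 1525 CPM in control libraries 1 and 2 (log2 fold change -0.23, adjusted p = 0.0319, edgeR, BH). The neuronal enolase ENO2 (-0.25, adjusted p = 0.103, edgeR, BH) and PFKFB4 (-0.23, adjusted p = 0.241, edgeR, BH), which makes an activator of glycolysis, had the next smallest p in the same fit. The SLC2A1 call was lost without mimic library 1 (log2 fold change -0.20, adjusted p = 0.119, edgeR, BH), without control library 2 (-0.13, adjusted p = 0.366) and in DESeq2 (adjusted p = 0.406). The list median was -0.04 without mimic library 1 and -0.06 without control library 2, with 20 of 24 below 0 and 0 called in each. It was -0.14 without control library 1, with 7 called lower, and -0.16 without mimic library 2, with 2 called lower. The 24 genes summed to 12466 and 13342 CPM in mimic libraries 1 and 2, against 13527 and 14194 CPM in control libraries 1 and 2, so that mimic library 1 was the lowest here as in EGLN3, EGLN1 and SLC2A1. Control library 2 was the highest in this sum, in SLC2A1 and in EGLN3, but not in EGLN1. The part of either library in these results beyond the values without it was not tested.

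Of 40 tested HIF targets outside glucose metabolism 1 was called higher, 1 was called lower and 38 did not pass. Over all genes 0.277% were called higher and 0.0691% lower. Below 0 lay 24 of the 40, with a median log2 fold change of -0.06, against 49.6% of all genes and a median of 0.00. PLOD2, a lysyl hydroxylase of collagen that itself needs oxygen and 2-oxoglutarate, was higher at 1036 and 1062 CPM in mimic libraries 1 and 2, against 879 and 830 CPM in control libraries 1 and 2 (log2 fold change 0.30, 95% interval 0.21 to 0.38; adjusted p = 0.00104, edgeR, BH). It was also called when any single library was left out. IGFBP1, a secreted binding protein for insulin-like growth factors, was lower at 836 and 976 CPM in mimic libraries 1 and 2, against 1061 and 1231 CPM in control libraries 1 and 2 (log2 fold change -0.34, adjusted p = 0.00994, edgeR, BH; DESeq2 adjusted p = 0.450), and the nuclear receptor RORA at 0.29 did not pass (adjusted p = 0.0599, edgeR, BH). The known targets thus included a called gene in each direction. Without mimic library 1 the median of this list was 0.01, with 21 of 41 above 0. It was -0.02 without control library 2, with 24 of 41 below 0. The median was -0.07 without control library 1, with 26 of 41 below 0, and -0.09 without mimic library 2, with 28 of 41 below 0.

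**Figure D5:**
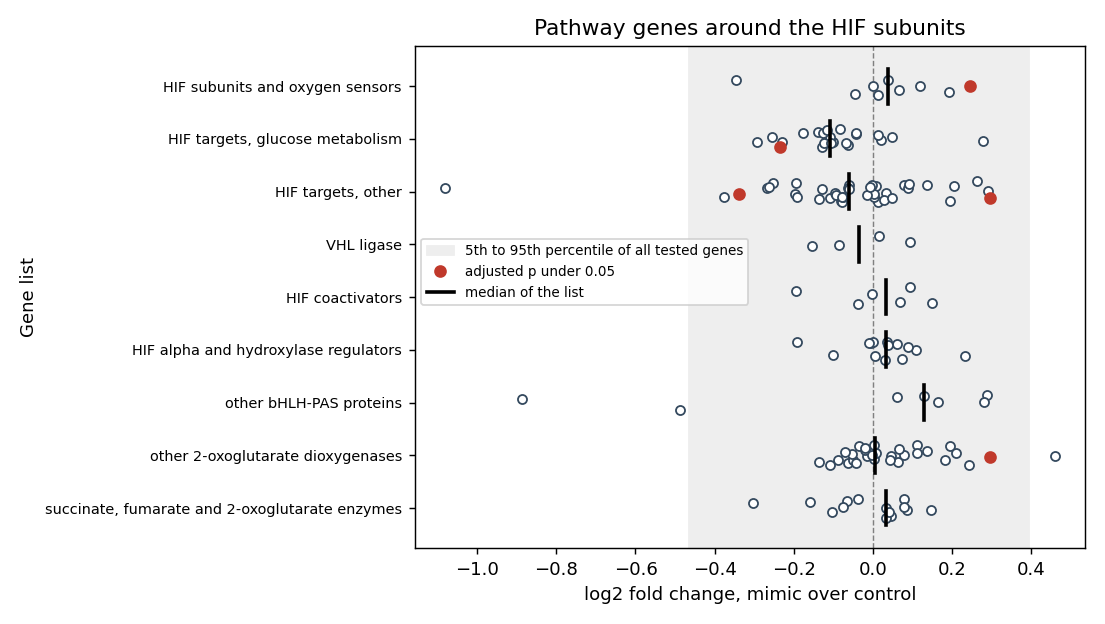
Log2 fold change of mimic over control for the tested genes of each list (points, spread vertically at random; filled red: adjusted p under 0.05; black bars: list medians; grey: 5th to 95th percentile of all tested genes, -0.46 to 0.39; dashed line: median of all tested genes). Filled points are HIF1A, SLC2A1, IGFBP1 and PLOD2, which is on both the target and the dioxygenase list.

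None of the members' partners on the lists was called. None of the 4 other subunits of the VHL ligase passed, and CUL2, its scaffold, had the smallest p with 41.1 and 40.7 CPM in mimic libraries 1 and 2, against 45.0 and 46.0 CPM in control libraries 1 and 2 (log2 fold change -0.15, 95% interval -0.32 to 0.01). None of 6 coactivators passed, among them the acetyltransferases CREBBP (0.15, 0.03 to 0.26) and EP300 (0.07, -0.04 to 0.17). Of 14 regulators of alpha subunit or hydroxylase stability 0 passed, at a median of 0.03, with the lectin OS9 (0.09), the ubiquitin ligase SIAH1 (0.23) and the chaperone HSP90AA1 (0.06) having the smallest p. Of 7 tested bHLH-PAS proteins, the family to which HIF alpha and ARNT belong, 0 were called. AHR, the aryl hydrocarbon receptor that also binds ARNT, had 77.1 and 67.9 CPM in mimic libraries 1 and 2, against 61.1 and 57.2 CPM in control libraries 1 and 2 (log2 fold change 0.29, 95% interval 0.13 to 0.45; adjusted p = 0.120, edgeR, BH). For AHR both mimic libraries lay above both controls without a call. SIM2 at -0.89 and the clock factor NPAS2 at 0.13 had intervals of -1.65 to -0.13 and -0.01 to 0.27. SIM2 had few reads, 20 and 23 in mimic libraries 1 and 2, against 37 and 40 in control libraries 1 and 2 (adjusted p = 0.437, edgeR, BH).

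Enzymes that share the chemistry of the EGLN family, or supply and remove its substrates, were also mostly without a call. Of 30 tested 2-oxoglutarate dioxygenases PLOD2 was called higher and 29 did not pass, with a median log2 fold change of 0.01. The histone demethylase KDM3A, a known HIF target on both lists, had a log2 fold change of 0.14 (95% interval 0.04 to 0.24), and JMJD6 one of 0.19 (0.03 to 0.36). Of 14 enzymes of succinate, fumarate, 2-oxoglutarate and 2-hydroxyglutarate none passed, with the smallest p for D2HGDH (-0.30, -0.56 to -0.05), SUCLG2 (-0.16, -0.31 to -0.01) and OGDH (0.15, -0.0047 to 0.30).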

How the data were processed

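Poly(A)-selected RNA from 4 Hep G2 libraries was sequenced on a NextSeq 500 with a stranded KAPA kit, per the labels' protocols. The authors deposited raw counts, 1 column per library and 1 line per Ensembl gene, with no normalization; the submitters' processing notes name FastQC, Bowtie2, STAR and HTSeq with build GRCh38.p14, and the file headers name alignments without rRNA reads. Versions, annotation release and strand setting: not given in the sources used here. HTSeq's 5 summary entries (23.1% to 24.1% of each column) were left out of library sizes and tests. Symbols matched 62590 of 62655 IDs; exon lengths and overlaps came from GENCODE 29 (GRCh38).

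Counts were fitted with edgeR 4.0.16 in R 4.3.3: filterByExpr (minimum count 10, minimum total 15), TMM factors, quasi-likelihood F test (legacy = FALSE), Benjamini-Hochberg adjustment over 14464 genes, threshold 0.05. CPM used TMM-scaled library sizes. The step was tested on simulated data. The members and gene lists were chosen with earlier results of these data known. Named genes are all members, every called gene and up to 3 with the smallest p of each other list, genes overlapping a member, and the marker of other cell types with the highest level. Alternatives were RLE, upper-quartile and no scaling factors, DESeq2 1.42.0, limma 3.58.1 voom, legacy = TRUE, other filters, each library left out, and a block on the column number. Libraries carry the numbers of the columns; the titles number the controls 3 and 4.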

Additional observations from a re-analysis of the deposited data

How the results depend on the processing

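Of the members, HIF1A kept its sign in all 13 alternatives (log2 fold change 0.19 to 0.29) and its call in 8, and EGLN3 kept its sign in 13 (-0.58 to -0.17) and was called in 3 of the 12 that gave it an adjusted p. Members called numbered 0 with upper-quartile scaling, with library totals and with no filter on low counts, and 0 to 2 with each library left out. Genes called over all numbered 20 to 424 with a library left out, against 50, and HIF targets called 2 to 12, against 3. With no filter edgeR called 0 genes and 0 HIF targets, while 1514 genes and 19 targets had an unadjusted p under 0.05. Limma voom, fitted to the same 14464 filtered genes as the main fit, called 50. DESeq2 gave 3282 genes an adjusted p and called 37 of them. The column numbers are not those of the titles and do not show pairing (the correlation of same-numbered deviations from group means was 0.03); with a replicate block on them edgeR called 306 genes, 2 members (HIF1A, EGLN3) and 10 targets. Of the genes named in the report and not called with all libraries, those called without control library 1 were EGLN3, ENO2, PFKFB4, RORA, CREBBP, AHR, JMJD6, TTR and AFP; without mimic library 2 they were EGLN3, ENO2, RORA and AHR. The cause of these moves was not tested.

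The named genes whose sign turned under an alternative were not called with all libraries. EPAS1 stood at -0.0059 with library totals, and ARNT at 0.00056 with legacy = TRUE and 0.0031 with the replicate block. With a library left out, log2 fold changes ranged from -0.026 to 0.056 for EPAS1, -0.060 to 0.064 for ARNT, -0.17 to 0.055 for EGLN1 and -0.045 to 0.31 for EGLN2. Among genes that are no members they ranged from -0.026 to 0.76 for CDH5, -0.11 to 0.084 for PECAM1, -0.28 to 0.14 for COL1A1, -0.034 to 0.00035 for SPTSSA, whose span meets that of EGLN3, -0.36 to 0.069 for NDUFB8 and -1.19 to 1.23 for EGLN3-AS1. Among the members, few reads limit HIF3A, ARNT2 and EGLN2, which had at most 104 per library. For EGLN2 the part of the readthrough overlap in this low count was not tested.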
